A study of Homo sapiens with 12 samples.

Results

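KARPAS-422 cells that grew for 4 days with 1.5 µM CPI-169 were compared with KARPAS-422 cells given 0.1% DMSO, the solvent. KARPAS-422 is an established human lymphoma line of the germinal centre B cell class. Per the series' design, its EZH2 bears a mutation of the catalytic SET domain that raises activity, and inhibition of EZH2 alters its phenotype. CPI-169 is a small molecule that blocks the methyltransferase activity of EZH2. The comparison asks which transcripts differ once that activity is blocked. It uses 6 of the 12 RNA sequencing libraries of the series, 3 with DMSO and 3 with CPI-169. Compound or solvent was added at seeding. Pellets were lysed in Trizol or in RLT buffer, and which library had which is not stated. Both groups carry the EZH2 mutation and come from 1 line, at 1 dose and 1 time. The labels do not say whether replicates were separate cultures. The p-values set the group difference against the spread between libraries of a group, which may be a technical spread. Genes were taken where at least 3 of the 6 libraries reached 1 FPKM (fragments scaled to transcript length and to the mapped fragments of the library), which gave 15115 genes of 63129 gene IDs.

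EZH2 is the catalytic subunit of Polycomb repressive complex 2, in which EED and SUZ12 are its obligate partners. The complex methylates lysine 27 of histone H3, a mark of silent genes that is removed by the demethylases KDM6A and KDM6B and lost through dilution as cells divide. In germinal centre B cells EZH2 holds back genes of cell cycle arrest and of plasma cell differentiation, and SET domain mutations of EZH2 recur in lymphomas that arise from these cells.

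In a test across all 15115 genes, 69.2% passed the threshold of 0.05 (limma on log2(FPKM + 1) with Benjamini-Hochberg adjustment). With CPI-169, 4989 genes were higher (33.0%) and 5466 were lower (36.2%), and the median log2 fold change of all genes was -0.02. Counts in the lists below are to be read beside these shares. Large differences lay mostly on the higher side. Of all 15115 genes, 1170 passed and were higher by at least 2-fold (7.74%), and 592 passed and were lower by at least 2-fold (3.92%). At 4-fold or more there were 151 higher and 21 lower, at 8-fold 33 and 2, and at 16-fold 8 and 0. The plot of level against change shows this tail, with the interferon-induced IFIT1 and the troponin gene TNNI1 at its upper end and the lymphotoxin gene LTA at its lower end. All fold changes are on the log2(FPKM + 1) scale, on which genes of low level appear less changed than they are.

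**Figure D1:**
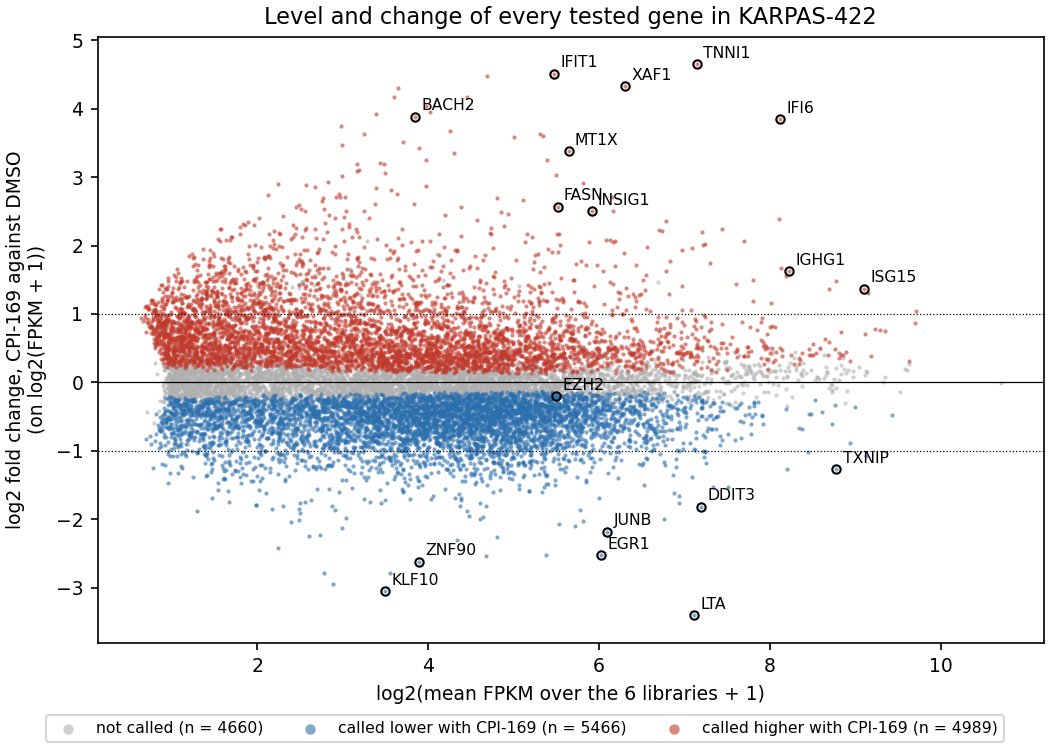
Each point is 1 of the 15115 tested genes, with its log2 mean FPKM over the 6 libraries (plus 1) on the horizontal axis and its log2 fold change with CPI-169 on the vertical axis. Red marks the 4989 genes called higher and blue the 5466 called lower, dotted lines mark 2-fold, and points beyond 4-fold are mostly above 0.

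The balance of the calls differed with the level of a gene. Below a mean of 2 FPKM, 43.6% of 2221 genes were higher and 20.9% lower. From 10 to 50 FPKM the order was the other way round, with 27.1% of 6298 genes higher and 45.5% lower. From 200 FPKM on, 35.2% of 230 genes were higher and 14.3% lower. The filter itself shapes the lowest class, since 726 genes passed it with every CPI-169 library at 1 FPKM or more and every DMSO library below 1, against 233 genes the other way round. Of the former, 25 were below 0.1 FPKM in every DMSO library. By gene class, 48.3% of 625 antisense RNAs and 43.9% of 399 lincRNAs were higher, against 33.2% of 10701 protein-coding genes, and 21.9%, 23.1% and 40.1% were lower. Among protein-coding genes, the 25% with the longest transcripts had 774 of 2676 higher and 1299 lower, and the 25% with the shortest had 962 of 2677 higher and 853 lower.

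**Figure D2:**
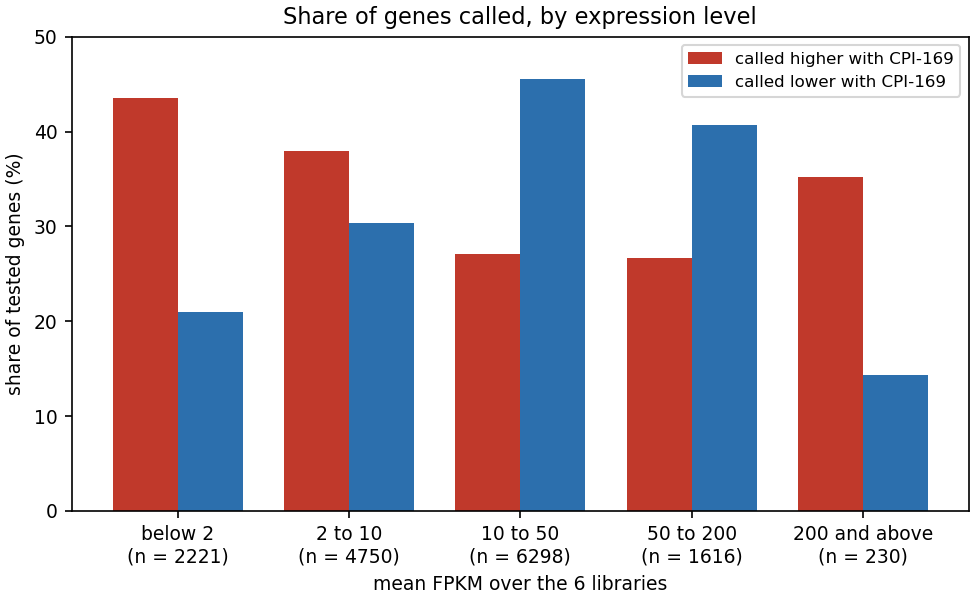
Bars give the share of tested genes called higher (red) or lower (blue) with CPI-169 in 5 classes of mean FPKM over the 6 libraries, with the number of genes in each class under the axis. Higher calls exceed lower ones below 10 FPKM and from 200 FPKM on, and lower calls exceed higher ones between 10 and 200 FPKM.

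The groups stood far apart relative to their replicates. Pearson's r across the tested genes was 0.9906 to 0.9963 within groups and 0.9165 to 0.9273 between them. In 72.4% of all tested genes the groups did not overlap, so the lack of overlap in a named gene is the common case. FPKM sums ran from 371965 to 418285, and the depth relative to DMSO replicate 1, read from the steps between the lowest values, ran from 0.648 in DMSO replicate 2 to 1. Absolute depth is unknown. DMSO replicate 1 and CPI-169 replicate 2 had lower values of short transcripts than their group, with median log2 deviations of -0.196 and -0.136 in the shortest 25% of protein-coding genes, against 0.064 to 0.119 in the other libraries. Counts for ribosomal protein, respiratory chain and histone genes are given with and without these libraries, and those of the metallothionein and S100 lists were equal with and without both. The B cell genes CD79A and PAX5 were at 496, 543 and 494 and at 99.5, 89.6 and 84.7 FPKM with DMSO, so markers of the labelled cell type were present.

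Genes of Polycomb repressive complex 2 (PRC2) and of other enzymes that act on the same lysine changed in both directions. EZH2 (chr7:148504474-148581413, hg19) was at 44.4, 48.7 and 49.1 FPKM with DMSO and 41.5, 40.4 and 41 with CPI-169, so that every CPI-169 library lay under every DMSO library by a small margin. The log2 fold change was -0.2 (SE 0.057, limma adjusted p = 0.0149), and limma's adjusted p was 0.0566 without DMSO replicate 2 and 0.0574 without DMSO replicate 3. mRNA does not report on the catalytic activity that the compound blocks. EED, which reads the methyl mark, fell from 70.3 ± 4.24 to 52.1 ± 1.68 FPKM (SD, n = 3 each), and SUZ12 was at 48.4, 53.1 and 49.5 FPKM with DMSO and 48.8, 48 and 49.6 with CPI-169, with overlapping groups and a log2 difference of -0.04 (95% interval -0.17 to 0.09). EZH1, the paralogue that can replace EZH2 in the complex, rose by 0.3, and C17orf96, an accessory component, rose from 4.18 ± 0.0696 to 11.8 ± 0.981 FPKM. The enzymes with the opposite action fell. KDM6B was at 56.4, 44.8 and 46.3 FPKM with DMSO and 15, 17.7 and 15.1 with CPI-169, and KDM6A fell by 0.93 on the log2 scale. CREBBP, an acetyltransferase of the same lysine, went from 73.8, 61.9 and 58.9 to 20.3, 24.6 and 22 FPKM. Of 17 genes of this list, 4 were higher and 10 lower, with a median of -0.24.

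Of 20 subunits of the partner complex PRC1, which reads the mark and ubiquitinates histone H2A, 7 were higher and 8 lower. These counts were near the shares of all tested genes. PCGF5, a RING finger subunit, went from 1.61, 1.7 and 1.83 to 6.73, 6.42 and 6.16 FPKM, while YAF2 and PHC3 fell by 1.59 and 1.04 on the log2 scale. The list of other histone and DNA methylation enzymes had 6 members higher and 16 lower of 28. The histone H3 lysine 79 methyltransferase gene DOT1L and the deacetylase gene SIRT1 fell by 1.28 and 1.29. HDAC9, a class IIa deacetylase gene, was close to the filter with DMSO at 1.04, 1.17 and 0.856 FPKM and reached 12.5, 11.9 and 12.1 with CPI-169. Classical Polycomb targets were rarely measurable. Of 61 developmental transcription factor genes listed, 11 passed the filter, 3 of them higher and 6 lower. SOX9 rose from 5.61 ± 0.426 to 20.9 ± 1.33 FPKM, and MSX1 fell by 1.54 on the log2 scale. Of 39 HOX genes listed, 10 passed the filter, with 4 higher and 2 lower, and HOXC4 went from 10, 9.61 and 10.5 to 22, 24.4 and 24.4 FPKM.

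The largest increases fell in genes of unlike function. TNNI1, which encodes slow skeletal muscle troponin I, was at 7.86, 11.6 and 10.3 FPKM with DMSO and 288, 228 and 298 with CPI-169. L3MBTL4, a chromatin reader gene of the malignant brain tumour domain family, was at 1.08, 1.44 and 1.16 FPKM with DMSO and 49.7, 45 and 50.9 with CPI-169. S100A4, which encodes a calcium-binding protein, was nearly silent at 0.157, 0.243 and 0.166 FPKM and reached 25.3, 17.8 and 25.2. In each of these genes the lowest CPI-169 library lay many times above the highest DMSO library. RGCC, a cell cycle regulator gene, rose to 41.8, 37.6 and 41.8 FPKM from 1.66 or less, PRR15L to 23.6, 20.1 and 22.2 from 0.33 or less, and LHFPL2, which encodes a tetraspan membrane protein, to 18.4, 17.6 and 19.7 from 0.351 or less. FAM184A rose by 3.95. LGALS9, which encodes galectin-9, was at 0.2 FPKM or less with DMSO and at 13.3, 14.4 and 13.3 with CPI-169.

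The largest decreases were steep in genes that had been well expressed. LTA, which encodes lymphotoxin alpha, was at 252, 263 and 239.7 FPKM with DMSO and 23.7, 23.2 and 22 with CPI-169, and its neighbour TNF fell from 30.8 ± 2.49 to 8.91 ± 0.602 FPKM. KLF10, a repressor induced by growth factors and TGF-beta, was at 20.3, 17.5 and 19.7 FPKM with DMSO and 1.4, 1.42 and 1.51 with CPI-169. OGN, the gene of the matrix proteoglycan osteoglycin, went from 11.1, 13.2 and 11.9 to 0.57, 0.782 and 0.722 FPKM. Both OGN and BHLHE41, a transcriptional repressor of the clock (11.6, 10.3 and 10.9 with DMSO, 0.736, 1.1 and 0.445 with CPI-169), went from above 10 FPKM in every DMSO library to 1.1 or less in every CPI-169 library. The lipid phosphate phosphatase gene PPAP2B, the dehydrogenase gene DHRS2, the uridine phosphorylase gene UPP1 and the lectin gene CLEC17A also fell, with log2 fold changes of -2.78, -2.53, -2.25 and -2.22. TMED7-TICAM2 is a read-through of neighbouring genes, so its fall of 2.42 cannot be assigned to either. The dot plot shows these genes by library. They were chosen for a call and for groups that do not overlap, so the gap between groups follows from the choice. Within a group some genes still varied, such as BHLHE41 with CPI-169.

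**Figure D3:**
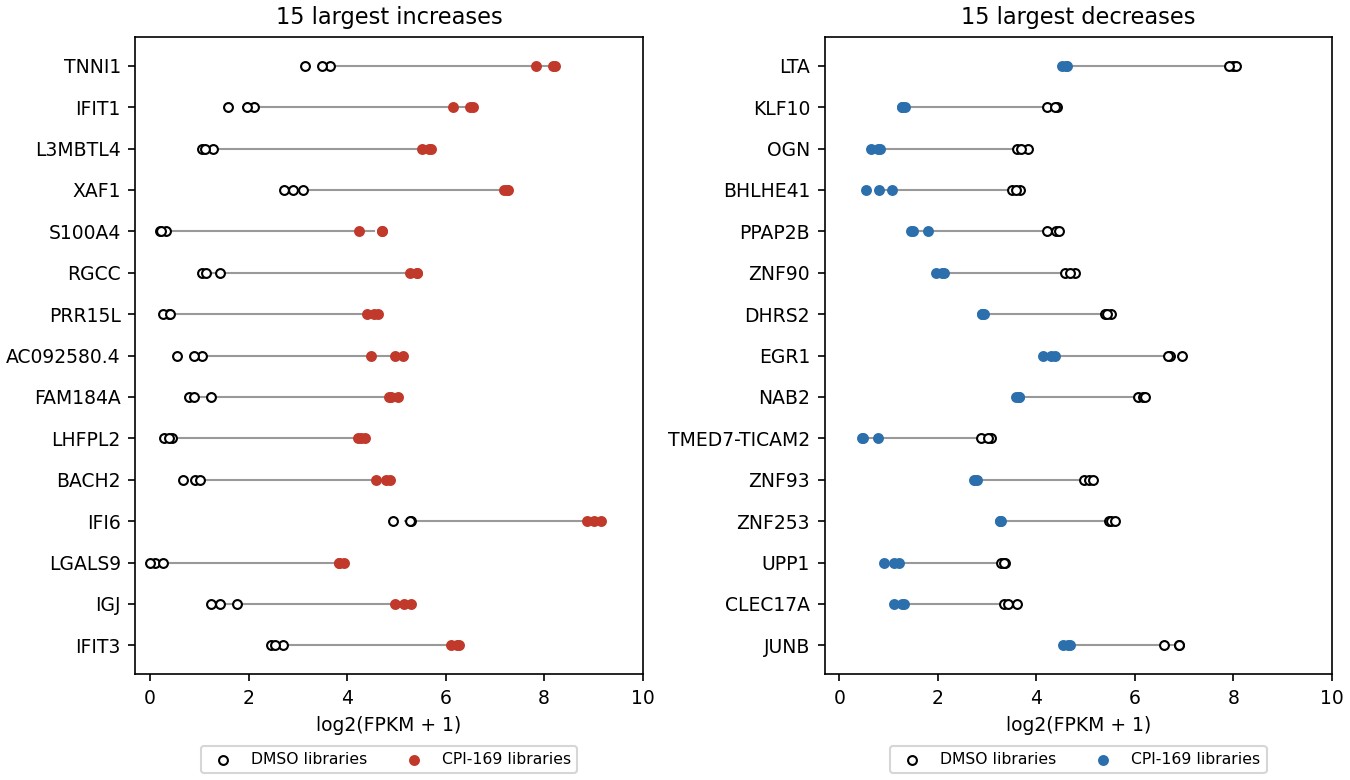
The 15 largest increases (left) and 15 largest decreases (right) among genes whose groups did not overlap and whose higher group averaged 2 FPKM or more, each library as a dot on a log2(FPKM + 1) axis. Open dots are the 3 DMSO libraries and filled dots the 3 CPI-169 libraries, and a grey line joins the group means.

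Interferon-stimulated genes were the list with the largest median. Type I and III interferons bind receptors that activate the kinases JAK1 and TYK2, which phosphorylate STAT proteins. These join IRF9 in a complex that binds interferon-stimulated response elements in target promoters, and the induced proteins bind, cut or sequester viral RNA. Of 69 effector genes tested, 65 were higher, 47 of them by at least 2-fold, and none was lower, with a median log2 fold change of 1.49 against -0.02 for all genes. Among the 4 that did not pass, ISG20, PARP9 and TRIM38 were at 0.05, 0.04 and -0.11. Leaving out the 5 members that passed the filter through 1 group alone gave a median of 1.46.

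Promoters of 48 of the 65 higher effector genes were found by symbol in the RefSeq table (GRCh38.p14), and 27 of these 48 (56.25%) held GAAANNGAA, the core of the interferon-stimulated response element, on either strand within 250 bases before a transcription start. The motif was held by 6.88% of all 35116 promoters given there. Counted per gene over all its starts, 643 of 8463 tested genes with a promoter (7.60%) did. The list was drawn up as interferon-stimulated genes, so its larger share can follow from that choice alone. The 3 effector genes with the largest fold changes among those with a match in the last 200 bases are shown so that the placing of the matches can be seen, with matches in capitals, and a capital run beginning with TTC is a match on the opposite strand.
IFIT1, chr10:89392423-89392622, plus strand: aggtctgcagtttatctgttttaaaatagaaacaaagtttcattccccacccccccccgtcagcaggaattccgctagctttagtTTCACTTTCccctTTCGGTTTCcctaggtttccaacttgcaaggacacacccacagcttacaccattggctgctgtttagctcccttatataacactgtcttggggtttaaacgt
IFI6, chr1:27672193-27672392, minus strand: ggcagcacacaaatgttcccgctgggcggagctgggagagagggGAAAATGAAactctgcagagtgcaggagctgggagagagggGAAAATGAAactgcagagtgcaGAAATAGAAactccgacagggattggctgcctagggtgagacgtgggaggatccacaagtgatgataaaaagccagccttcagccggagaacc
IFIT3, chr10:89327797-89327996, plus strand: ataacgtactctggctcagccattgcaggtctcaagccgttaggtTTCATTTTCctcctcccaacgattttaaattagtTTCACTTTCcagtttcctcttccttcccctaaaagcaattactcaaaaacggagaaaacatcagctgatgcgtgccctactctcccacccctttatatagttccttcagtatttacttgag
The IFIT1 promoter holds 2 matches, which lie between 115 and 94 bases before the start, IFI6 holds 3 between 156 and 85 bases, and IFIT3 holds 2 between 155 and 113 bases. A match is a run of letters and no measurement of binding.

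These genes started from very different levels. IFIT1, which binds viral RNA that lacks cap methylation, was low at 1.99, 3.34 and 2.91 FPKM with DMSO and stood at 92.7, 70.4 and 88.8 with CPI-169. IFI6, an interferon-induced membrane protein gene of mitochondria and endoplasmic reticulum, was moderate at 29.4, 38.4 and 38 FPKM and reached 513, 469 and 568. XAF1, whose product binds the caspase inhibitor XIAP, went from 5.57, 7.64 and 6.45 to 145, 152 and 150.1 FPKM. MX1, the antiviral GTPase gene, and ISG15, the ubiquitin-like modifier gene, were already abundant with DMSO. MX1 was at 142, 154 and 143 FPKM with DMSO and 433, 426 and 441 with CPI-169, and ISG15 at 249, 355 and 314 FPKM with DMSO and 814, 693 and 856 with CPI-169. RSAD2, the viperin gene, and CMPK2, a nucleotide kinase gene beside it, rose by 3.6 and 2.91. The oligoadenylate synthetase genes OAS1, OAS2 and OAS3 rose by 2.36, 2.05 and 1.94.

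The ligands at the head of the pathway did not reach the filter. None of 21 interferon genes could be tested, and the highest value of any of them in any of the 6 libraries was 0.508 FPKM. Their summed level was 0.174 to 0.300 FPKM with DMSO and 0.388 to 0.830 with CPI-169, a difference at the floor that was not tested. The receptors moved in opposite directions, with IFNAR1 falling by 0.66 and IFNAR2 rising by 0.41. The kinase genes JAK1 and TYK2 rose by 0.75 and 0.65. STAT2 was at 34.5, 31.7 and 31.1 FPKM with DMSO and 119, 123 and 127 with CPI-169, and IRF9, its DNA-binding partner, rose by 0.73. IRF7, which amplifies the response, was at 58, 65.4 and 63 FPKM with DMSO and 113, 100.01 and 113 with CPI-169. Its fold change of 0.8 passed in this fit (limma adjusted p = 5.4e-05) and not when all 12 libraries shared 1 spread (limma adjusted p = 0.127). STAT6 and IRF5 also rose. Of the 22 receptor, kinase, STAT and IRF genes, 14 were higher and 5 lower.

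Sensors that can start the response were split. Of 23 sensor and adaptor genes, 15 were higher, 9 of them by at least 2-fold, and 4 lower. The cytosolic RNA sensor genes rose, with IFIH1 (MDA5) at 0.589, 0.731 and 0.991 FPKM with DMSO and 8.78, 9.2 and 8.98 with CPI-169 and DDX58 (RIG-I) at 10, 10.4 and 10.1 FPKM with DMSO and 38.5, 36.4 and 38.6 with CPI-169. TLR7, the endosomal receptor for single-stranded RNA, went from 0.69, 0.748 and 0.723 to 6.36, 7.3 and 6.73 FPKM, its trafficking chaperone gene UNC93B1 from 15.6, 15.8 and 16.1 to 74.1, 69.5 and 80.8, and the adaptor gene MYD88 rose by 1.73. Of the pair that senses cytosolic DNA, MB21D1 (cGAS) fell from 8.12, 8.04 and 8.16 to 3.43, 3.17 and 2.78 FPKM, and TMEM173 (STING) was nearly absent, at 0.0512 FPKM or less in every library. Among 11 feedback inhibitors, 3 were higher and 4 lower. USP18, which removes ISG15 and blocks the receptor, was at 3.57, 4.66 and 3.67 FPKM with DMSO and 60.5, 53.7 and 60.3 with CPI-169, SOCS1 rose by 1.09, and PIAS1 and PIAS4 fell by 0.82 and 0.62.

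MHC class I genes, which carry peptides from the proteasome to the cell surface, mostly rose. Of 22 genes, 15 were higher and 2 lower. PSME1, a proteasome activator gene, was at 94.9, 111 and 104 FPKM with DMSO and 294, 267 and 285 with CPI-169. TAP1, a subunit of the peptide transporter, rose by 1.05 and PSMB10, an immunoproteasome subunit, by 0.9. HLA-F went from 6.06, 7.54 and 6.04 to 27.9, 22.8 and 28.7 FPKM and HLA-B from 481 ± 46.4 to 814 ± 56.9 FPKM. B2M, the shared light chain, was at 1374, 1930.5 and 1694 FPKM with DMSO and 1756, 1469.5 and 1728 with CPI-169, with overlapping groups and an interval of the log2 difference of -0.43 to 0.42. HLA-C rose by 0.41, a call that was lost without CPI-169 replicate 1 (limma adjusted p = 0.0523) and without CPI-169 replicate 3 (0.0561). Classical HLA genes are polymorphic and alike in sequence, so reads may be split among them.

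MHC class II and costimulatory genes were mixed. Of 18 class II genes, 10 were higher and 6 lower. CIITA, the master regulator of the class, rose from 16.9 ± 1.64 to 30.5 ± 1.69 FPKM and RFX5, its promoter-binding partner gene, from 31.3 ± 2.55 to 98.3 ± 6.41 FPKM. HLA-DPB1 and HLA-DOA rose by 1.29 and 1.34, and CD74, the invariant chain, by 0.87, while IFI30, a lysosomal thiol reductase gene, fell by 1.11. Costimulatory and checkpoint ligands had 8 of 12 tested members higher and 3 lower. CD86, a ligand of CD28, was at 6.91, 8.5 and 8.51 FPKM with DMSO and 27, 23.5 and 23.9 with CPI-169. CD40, CD58 and CD48 rose by 1.6, 1.43 and 1.37, each from 2.44 FPKM or less.

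Cholesterol synthesis and uptake genes rose at most steps. The enzymes of this pathway are transcribed by SREBP-2, which is released when sterols in the endoplasmic reticulum are low, and INSIG1 retains it there. Of 25 genes tested, 22 were higher, 11 of them by at least 2-fold, and 1 was lower, with a median of 0.96. The first step, ACAT2, went from 7.27, 9.22 and 9.58 to 45, 37.9 and 44.7 FPKM. HMGCS1, the synthase of the next step, rose by 1.07. FDFT1 and SQLE, which commit the pathway to sterols, rose by 1.77 and 0.95. INSIG1 was at 17, 16.9 and 17.3 FPKM with DMSO and 103, 95.9 and 104 with CPI-169. All CPI-169 libraries lay above all DMSO libraries in each of these genes. Over all tested genes, groups did not overlap, in either direction, in 72.4%. PMVK, the phosphomevalonate kinase gene, was the member that fell (-0.73). SREBF2, which encodes SREBP-2, was at 102, 94.5 and 95 FPKM with DMSO and 90.8, 94.8 and 94.3 with CPI-169, with overlapping groups, and neither it nor HSD17B7 passed. A second motif, TCACNCCAC, was searched for this list in the same way. Promoters were found for 16 of the 22 higher genes, and 0 of these 16 held it. Of 8463 tested genes with a promoter, 107 (1.26%) held it, so 16 promoters are too few to tell the list from the rest.

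Fatty acid synthesis rose with it. Of 19 genes, 15 were higher and 1 lower. FASN, the synthase, was at 14.5, 11 and 11.1 FPKM with DMSO and 74, 87.4 and 70.2 with CPI-169, SCD, the stearoyl desaturase gene, at 37, 35.1 and 35.4 FPKM with DMSO and 168, 170.4 and 173 with CPI-169, and FADS1 rose by 1.6. SREBF1, which encodes the regulator of this branch, rose by 0.35, a call lost without DMSO replicate 2 (limma adjusted p = 0.0503) or CPI-169 replicate 2 (0.0612). Genes that carry sterols out, targets of the liver X receptor, did not share the direction. ABCA1 was at 6.63, 5.47 and 5.71 FPKM with DMSO and 4.58, 5.53 and 5.24 with CPI-169, with overlapping groups, ABCG1 was at 0.0684 FPKM or less, and MYLIP, a ubiquitin ligase gene, fell by 0.23. NPC1 and NPC2, which move cholesterol out of lysosomes in sequence, parted, NPC1 falling by 0.49 and NPC2 rising from 16.3 ± 0.616 to 41.8 ± 2.56 FPKM. Of 19 fatty acid oxidation genes, 10 were higher, among them ECI2 (2.26) and HADH (1.56), and 8 lower. After median scaling 2 were lower. Leaving out a library also moved this count: 5 were lower without DMSO replicate 2, 4 without DMSO replicate 3, 5 without CPI-169 replicates 1 or 3, and 4 without CPI-169 replicate 2.

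**Figure D4:**
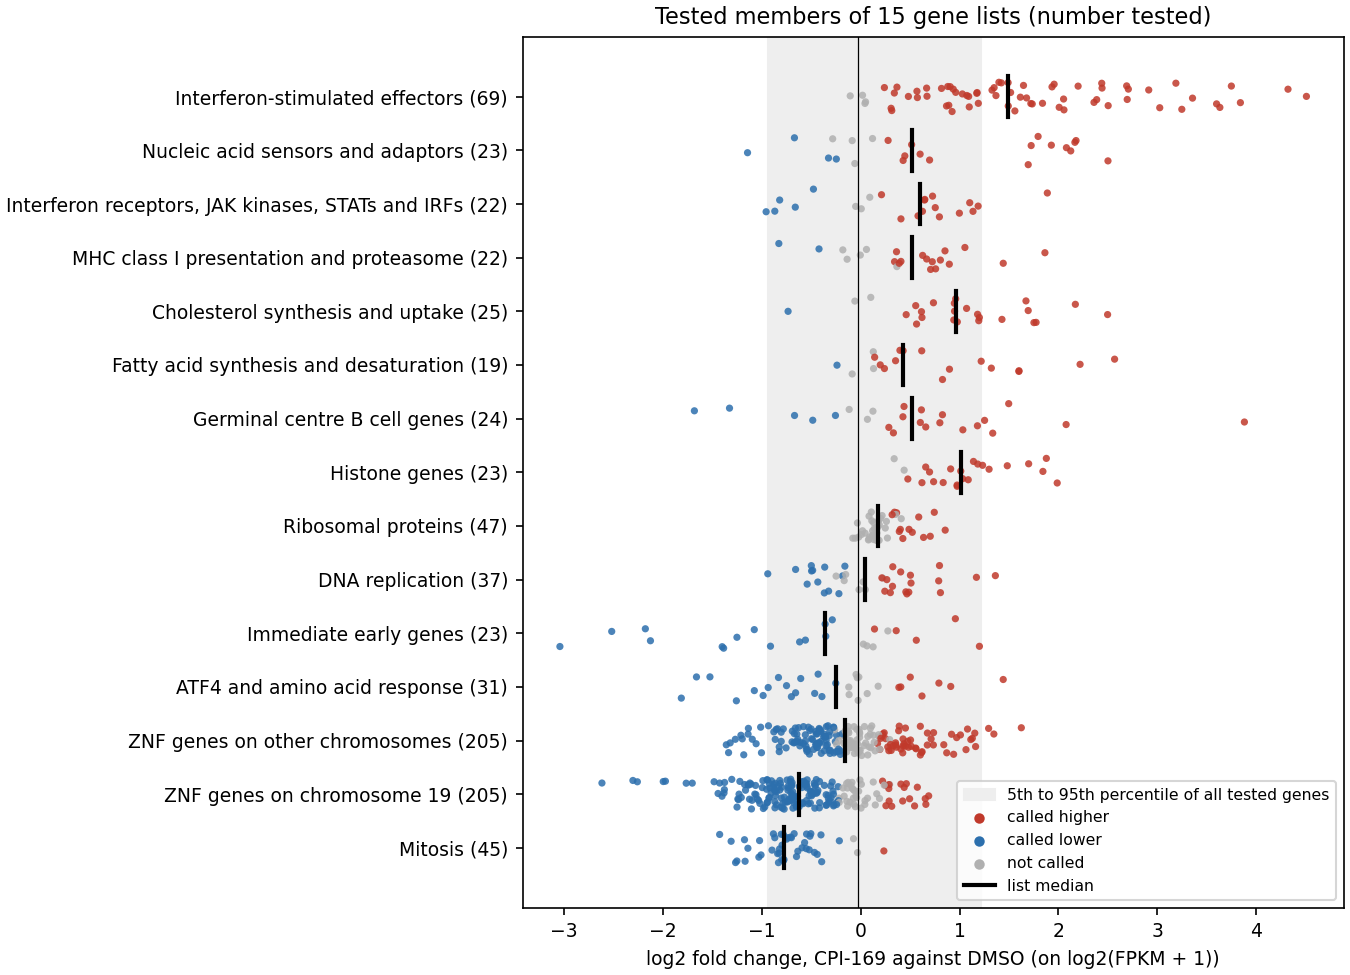
Dots are the tested members of 15 gene lists, placed by log2 fold change with CPI-169 and coloured by their call, with the list median as a black bar and the 5th to 95th percentile of all tested genes (-0.93 to 1.22) shaded. Of the 69 interferon-stimulated effectors 65 are called higher, the 45 mitosis genes lie to the left except for CDC25B, and the 37 DNA replication genes spread on both sides of 0.

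Mitotic genes fell as a block while DNA replication genes did not. Of 45 mitosis genes, 42 were lower, 10 of them by at least 2-fold, and 1 was higher, with a median of -0.78. The exception was CDC25B, a phosphatase gene, at 0.23, and MYBL2 and BUB3 did not pass. The kinesin genes KIF20B and KIF14, which act in cytokinesis, were at 13, 12.7 and 13.7 FPKM with DMSO and 4.22, 4.31 and 4.22 with CPI-169 and at 14.9, 14.7 and 14.6 FPKM with DMSO and 5.08, 5.67 and 5.28 with CPI-169. CENPE, the kinetochore motor, went from 24.9, 25.9 and 24.6 to 9.99, 10.1 and 9.53 FPKM and KIF2C, a microtubule depolymerase, from 37.1, 42 and 41.5 to 16.4, 16.2 and 16.3. In each of these genes the CPI-169 libraries stood at less than 0.5 times the lowest DMSO library. MKI67, the proliferation marker, was at 28.2, 22.6 and 21.6 FPKM with DMSO and 17.4, 20 and 16.7 with CPI-169 and fell by 0.39 (limma adjusted p = 0.0139, 0.0548 without CPI-169 replicate 3).

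Of 37 replication genes, 17 were higher and 13 lower, with a median of 0.05. CDT1, the licensing factor that loads the helicase, was at 5.33, 6.55 and 6.18 FPKM with DMSO and 15.6, 20.1 and 15.6 with CPI-169. RRM2, the ribonucleotide reductase subunit, went from 8.44, 10.6 and 9.25 to 21.2, 23.3 and 22.7 FPKM, and POLD1, the catalytic subunit of polymerase delta, rose by 0.81. GINS3, a helicase component, fell by 0.94. No test of the difference between these lists was made. Bulk values cannot tell fewer cells in mitosis from less of these mRNAs per cell.

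Genes of the G1 phase and its inhibitors moved in both directions. Of 19 G1 cyclins, kinases, E2F factors and pocket proteins, 7 were higher and 10 lower. CDK6, CDC25A and E2F1 fell by 0.95, 0.96 and 0.56, and CCND3 by 0.33, while CCND2 was at 0.0658 FPKM or less. RB1, the retinoblastoma protein gene, was at 76.5, 74.6 and 72 FPKM with DMSO and 32.3, 34.4 and 34.7 with CPI-169, and its relative RBL2 rose by 0.75. CDKN1A, which encodes p21, was at 7.8, 8.18 and 7.53 FPKM with DMSO and 13.3, 12.1 and 12.4 with CPI-169, a fold change of 0.62 (limma adjusted p = 8.12e-05, but 0.221 with all 12 libraries fitted together). CDKN2C rose by 1.03, and CDKN2B and CDKN3 fell by 0.67 and 0.66.

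CDKN2A, which encodes p16 and ARF and is a well-known Polycomb target, was expressed in this line and did not rise. It was at 47.6, 77 and 77.3 FPKM with DMSO and 42.2, 34.7 and 48.8 with CPI-169, with overlapping groups and DMSO replicate 1 far below its group. Its fall of 0.65 (limma adjusted p = 0.0215) lost its call when DMSO replicate 2 or 3 was left out (0.0707 and 0.0718) and when CPI-169 replicate 1 or 2 was (0.0506 and 0.0681). CDKN1B, which encodes p27, fell by 0.19 at a limma adjusted p of 0.0409 that reached 0.134 without DMSO replicate 2, 0.12 without DMSO replicate 3, and 0.0586, 0.121 and 0.0899 without CPI-169 replicates 1, 2 and 3. Of the 7 inhibitors tested, 5 were lower and 2 higher, and 3 were lower when DMSO replicate 2 or 3 or CPI-169 replicate 1 or 2 was left out.

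Germinal centre genes mostly rose. Of 24 genes, 16 were higher and 5 lower. BACH2, a repressor that holds B cells from plasma cell fate, was at 0.871, 0.591 and 1.03 FPKM with DMSO and 22.9, 28.3 and 26.6 with CPI-169. SERPINA9, a serpin of germinal centre B cells, went from 22.8, 26.3 and 25.6 to 107, 105 and 112 FPKM, and ELL3, an elongation factor gene, rose by 1.5. CXCR5, which guides B cells into follicles, went the other way, from 3.59, 3.01 and 3.09 to 0.347, 0.417 and 0.194 FPKM. BCL6, the master repressor of the germinal centre, was at 208, 203 and 194 FPKM with DMSO and 216, 228 and 216 with CPI-169. These groups did not overlap, but the log2 difference of 0.12 (interval -0.04 to 0.28) missed the threshold. It passed as higher after median scaling (limma adjusted p = 0.0418) and without DMSO replicate 1 and CPI-169 replicate 2 (0.0455). MME (CD10) rose by 0.28.

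Plasma cell genes mostly rose, while their regulators PRDM1 and IRF4 stayed under the filter. Of 14 tested, 9 were higher and 1 lower. IGJ, which encodes the joining chain of secreted antibody, was at 1.35, 2.41 and 1.69 FPKM with DMSO and 38.1, 30.4 and 34.8 with CPI-169, and DERL3, MZB1 and CD27 rose by 1.44, 1.11 and 1.12. PRDM1 (BLIMP-1) was at 0.0537, 0.0934 and 0.0689 FPKM with DMSO and 0.233, 0.317 and 0.406 with CPI-169, and IRF4 was at 0.088 FPKM or less. XBP1, which drives the secretory programme, was at 39, 47 and 47.9 FPKM with DMSO and 38.3, 37.5 and 41.6 with CPI-169 with overlapping groups. It missed the threshold with all 6 libraries (limma adjusted p = 0.104) and passed as lower without DMSO replicate 1 (0.00424). SDC1 (CD138) rose by 0.36.

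Immunoglobulin segments rose in the same libraries, with 16 of 25 higher, 14 of them by at least 2-fold, and 2 lower. IGHV4-39 was at 7.97, 8.36 and 8.91 FPKM with DMSO and 57, 54.8 and 64.4 with CPI-169, and IGHG1 at 152, 147 and 139 FPKM with DMSO and 453, 451 and 449 with CPI-169. The adjoining IGHG4, IGHG2, IGHGP, IGHG1 and IGHG3 all rose by 1.41 to 1.62. These constant segments are near copies of each other, so 1 expressed segment can supply reads to all.

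B cell surface and signalling genes showed no common direction. Of 25 identity genes, 12 were higher and 9 lower. MS4A1, which encodes CD20, was at 138, 177 and 172 FPKM with DMSO and 329, 286 and 324 with CPI-169, while PAX5, the identity factor, fell by 0.69. FCRL3, an Fc receptor-like gene, and TCL1A, an AKT coactivator gene, rose from 1.54 ± 0.269 to 26.2 ± 2.06 FPKM and from 1.42 ± 0.226 to 19.2 ± 1.29 FPKM, and CD72 rose by 1.2. CD79A fell by 0.61, and CD79B missed the threshold with all 6 libraries (limma adjusted p = 0.0772) but passed as lower without DMSO replicate 1 (0.0191). Of 37 B cell receptor signalling genes, 15 were higher and 18 lower. DOK3, an inhibitory adaptor gene, was at 274, 267 and 268 FPKM with DMSO and 92.6, 92.8 and 93.7 with CPI-169, and PRKCB, the kinase upstream of NF-kappaB, and the calcium channel gene ITPR1 rose by 1.26 and 1.45. Among 13 migration and adhesion genes, ITGB2 fell by 1.38 and ITGB7 rose by 1.55.

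The lymphotoxin and TNF family split within a single locus. LTA and TNF fell as given above, and LTB, which lies beside them and forms the membrane heterotrimer with lymphotoxin alpha, rose from 16.7, 21.3 and 17.8 to 51.7, 47.6 and 54.1 FPKM. All 18 tested members of this list passed the threshold, 11 higher and 7 lower. Of 18 NF-kappaB subunits and feedback genes, 10 were higher and 6 lower, with the subunit gene NFKB2 at 0.76, the chemokine gene CCL3 at 1.53 and the inhibitor gene NFKBIB at -1.27. Of these 18, 3 passed the filter through 1 group alone, and the median of 0.34 was 0.02 without them. With a filter of 5 FPKM, which leaves some members untested, 5 were higher.

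Immediate early genes, which respond within minutes to receptor and ERK signalling, were lower. Of 23 tested, 14 were lower, 8 of them by at least 2-fold, and 5 higher. EGR1 was at 123, 104 and 102 FPKM with DMSO and 18.6, 19.6 and 16.6 with CPI-169, FOS at 11.2, 12.8 and 11.8 FPKM with DMSO and 1.77, 2 and 2.11 with CPI-169 and JUNB at 95.6, 119 and 118 FPKM with DMSO and 23.9, 22.3 and 24.7 with CPI-169. NAB2, a corepressor induced by EGR1, went from 65.9, 71 and 72.7 to 11.6, 11.5 and 11.1 FPKM. JUN was low throughout and fell by 0.29, and its limma adjusted p of 0.0195 became 0.0698 without DMSO replicate 3 and 0.0676 without CPI-169 replicate 3. EGR2 and EGR3 did not reach the filter. MYC, which is also induced early, went the other way, from 96.8, 110.0 and 98.6 to 200.4, 192 and 203 FPKM. ERK feedback genes had 9 of 16 lower and 5 higher, with the phosphatase genes DUSP5 and DUSP1 falling by 1.97 and 1.22, ETV5 by 1.35, and DUSP6 and SPRED2 rising by 0.52 and 1.09.

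Other signalling lists were divided. In the TGF-beta list, the receptor gene TGFBR1 rose by 1.35 and the target gene ID2 by 1.94, and the inhibitors SMAD7 and SKIL fell by 1.17 and 1.16, with 9 of 17 higher and 6 lower. In the WNT and NOTCH list, FZD1, FZD3 and HES6 rose by 1.52, 1.5 and 1.57, and NOTCH3 fell by 1.28, with 8 of 16 higher and 4 lower. In the ephrin, semaphorin and plexin list, 9 of 18 were higher and 5 lower, and the receptor gene EPHB1 went from 0.722, 0.736 and 0.366 to 8.37, 9.1 and 8.43 FPKM.

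In the MYC network, its antagonists parted as well. MXD4 and MXI1 rose from 17.5 ± 0.403 to 73.4 ± 5.81 FPKM and from 2.24 ± 0.369 to 10.8 ± 0.491 FPKM, MXD3 rose by 0.99, and MXD1 fell by 1.66. The list with ribosome biogenesis genes had 12 of 34 higher and 8 lower. Of 47 ribosomal protein genes, whose transcripts are short, 13 were higher and none was lower. Without DMSO replicate 1 and CPI-169 replicate 2 the count was 20, and without CPI-169 replicates 1 or 3 it was 5. RPL7 and RPL14 rose by 0.74 and 0.86. Nuclear-encoded respiratory chain genes, also short, had 6 of 40 higher and 6 lower, and 14 were lower without both libraries named above (13 without DMSO replicate 1 alone). After quantile normalization or median scaling 11 were higher, and without the filter 3 were lower. NDUFB10 rose from 27 ± 4.51 to 63.2 ± 5.52 FPKM.

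Cell death genes moved in both directions. Of 17 BCL2 family genes, 5 were higher and 6 lower, near the shares of all tested genes (33.0% higher and 36.2% lower). BCL2, the survival gene that the family is named for, was at 91.8, 86.5 and 89.1 FPKM with DMSO and 109, 115 and 122 with CPI-169, MCL1, a short-lived survival protein gene, was at 184, 200.8 and 198 FPKM with DMSO and 121, 118 and 126 with CPI-169, and BCL2L11, which encodes the killer BIM, rose by 0.53. PMAIP1 (NOXA) rose by 0.47 and BCL2L12 fell by 1.16. CASP1, the caspase of inflammasomes, was at 0.914, 0.775 and 1.25 FPKM with DMSO and 9.22, 7.4 and 7.08 with CPI-169, and CASP4, which senses cytosolic lipopolysaccharide, was at 3.34, 4.72 and 3.57 FPKM with DMSO and 17.8, 16.9 and 17.9 with CPI-169. Their substrate GSDMD, which forms membrane pores, went from 13.6, 12.3 and 12.1 to 37.1, 32.9 and 39.3 FPKM. XIAP fell by 0.83. GADD45A, a gene induced by DNA damage, rose by 1.56. Of 30 DNA repair genes, 9 were higher and 11 lower, again near the shares of all genes, with FANCF at 1.04 and BARD1 at -0.75.

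Among amino acid response genes more were lower than higher. Of 31 genes that respond to ATF4, the factor translated when amino acids are short, 16 were lower, 5 of them by at least 2-fold, and 7 higher. With all 12 libraries fitted together 2 were higher. DDIT3 (CHOP) was at 178, 253 and 250.5 FPKM with DMSO and 65.6, 56.6 and 67.4 with CPI-169 and TRIB3, a pseudokinase gene, at 175, 195 and 185 FPKM with DMSO and 58.1, 57.2 and 58.2 with CPI-169. SARS, the seryl-tRNA synthetase gene, fell by 1.52. CHAC1, which degrades glutathione and is a target of the same factor, rose from 21 ± 2.76 to 58.6 ± 2.43 FPKM. ATF4 itself fell by 0.47 (limma adjusted p = 0.00872), and this was not called with all 12 libraries fitted together (0.0768). Unfolded protein response genes had 5 of 20 higher and 8 lower, with SEL1L and EDEM1, of the degradation branch, falling by 1.35 and 1.16 and PDIA4 rising by 0.73. Heat shock genes had 9 of 24 higher and 9 lower, near the shares of all tested genes. HSPA8, the constitutive cytosolic chaperone gene, was at 50.4, 62.3 and 63.9 FPKM with DMSO and 262, 212 and 251 with CPI-169, and its mitochondrial relative HSPA9 was at 137, 158 and 162 FPKM with DMSO and 65.1, 63.6 and 66.9 with CPI-169. SQSTM1 and MAP1LC3B, which mark and build autophagosomes, fell by 1.61 and 1.12.

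In energy metabolism, 12 of 24 glycolysis and glucose transport genes were higher and 7 lower. TXNIP, which limits glucose uptake, was at 579.8, 649 and 623 FPKM with DMSO and 268, 242 and 262 with CPI-169, ALDOC and PFKFB4 rose by 1.32 and 1.31, and PFKFB3 fell by 0.82. Hypoxia genes had 5 of 15 higher and 7 lower. The collagen prolyl hydroxylase genes of that list parted, P4HA1 going from 30.3, 30.8 and 31.9 to 8.68, 9.34 and 8.16 FPKM and P4HA2 from 0.025, 0.058 and 0.0397 to 3.9, 3.89 and 4.03.

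S100, muscle and neuronal genes moved in both directions. Of 13 S100 and annexin genes tested, 9 were higher and 4 lower, but 5 of these passed the filter through 1 group alone, and without them the median was 0.10. S100A6 went from 6.24, 9.07 and 9.7 to 46.8, 37.5 and 44.5 FPKM, S100A10 from 0.181, 0.28 and 0.335 to 3.2, 2.84 and 2.25, and S100A11 fell by 0.46. ANXA1 was listed at 0 in every library. Of 20 muscle and cytoskeleton genes, 10 were higher and 7 lower, with TPM1 and LMNA rising by 1.42 and 1.47, while VIM did not exceed 0.896 FPKM in any library. Of 11 neuronal and synaptic genes tested out of 45 listed, 6 were higher and 4 lower, but 2 of these passed the filter through 1 group alone, and the median of 0.43 was -0.24 without them.

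Zinc finger genes of chromosome 19 were lower as a family. Most of these ZNF genes encode KRAB repressors of transposable elements, lie in tandem clusters and resemble each other, so reads may be shared between copies. Of 205 tested on chromosome 19, 155 were lower, 36 of them by at least 2-fold, and 17 higher, with a median of -0.62. Of 205 tested on other chromosomes, 95 were lower and 54 higher, with a median of -0.16. All 1087 tested genes of chromosome 19 had 44.1% lower and 25.8% higher. ZNF90 was at 26.5, 22.9 and 24.5 FPKM with DMSO and 3.24, 3.38 and 2.91 with CPI-169, ZNF253 at 43.6, 45 and 47.1 FPKM with DMSO and 8.64, 8.6 and 8.7 with CPI-169 and ZNF93 at 30.5, 32.5 and 34.6 FPKM with DMSO and 5.94, 5.65 and 5.75 with CPI-169. ZNF714 fell by 2.00. The 3 libraries of each group differed little in these genes.

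Runs of neighbours moved together. Taking tested genes in their order along each chromosome, there were 36 runs of at least 3 neighbours that were all called and higher by at least 2-fold and 5 runs that were lower. Of the higher runs 27 held 3 genes, 5 held 4 and 4 held 5. On chromosome 10 the run was LIPA, a lysosomal lipase gene, with IFIT2, IFIT3, IFIT1 and IFIT5. On chromosome 12 it was OAS1, OAS3 and OAS2, and on chromosome 2 CMPK2, RSAD2 and 2 noncoding genes, 1 of which was AC092580.4, from 0.459, 1.06 and 0.849 to 34, 21.4 and 30.3 FPKM. Outside the interferon response, CASP4, CASP1 and CARD16 rose together on chromosome 11, GSTM4, GSTM2 and GSTM1, which conjugate glutathione and are near copies, on chromosome 1, and S100A6, S100A4 and S100A13 also there. On chromosome 19 the longest lower run was ZNF253, the noncoding CTC-559E9.8, ZNF93, ZNF682 and ZNF90. Neighbours can overlap or share reads, and strand handling is not given, so runs are not counts of independent genes.

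The metallothionein run on chromosome 16 held MT2A, MT1DP, MT1B, MT1F and MT1X, a family that binds zinc and copper. MT1X was at 6.61, 8.13 and 8.6 FPKM with DMSO and 91.9, 88.2 and 90.1 with CPI-169 and MT2A at 37.3, 39.1 and 35 FPKM with DMSO and 149, 146 and 153 with CPI-169. MT1B went from 0.147, 0.34 and 0.465 to 16.2, 12.1 and 12.5 FPKM, and MT1F from 7.28, 7.43 and 8.54 to 51, 48.3 and 45.1. Their sequences are close, so the split among MT1 genes is uncertain. In the list with zinc transporters, 5 of 9 were higher, all by at least 2-fold, and 4 were lower. The median was 1.25, and 0.51 without the member that passed the filter through 1 group alone. The bar plot shows 3 runs with their flanking genes. By definition a run ends where the next gene is not called in the same direction by at least 2-fold, so its edges are no result. KIF20B, which lies near the IFIT genes, fell. Beyond the ZNF run on chromosome 19, CTC-260E6.6, ZNF486 and CTC-260E6.10 formed another lower run of 3 genes.

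**Figure D5:**
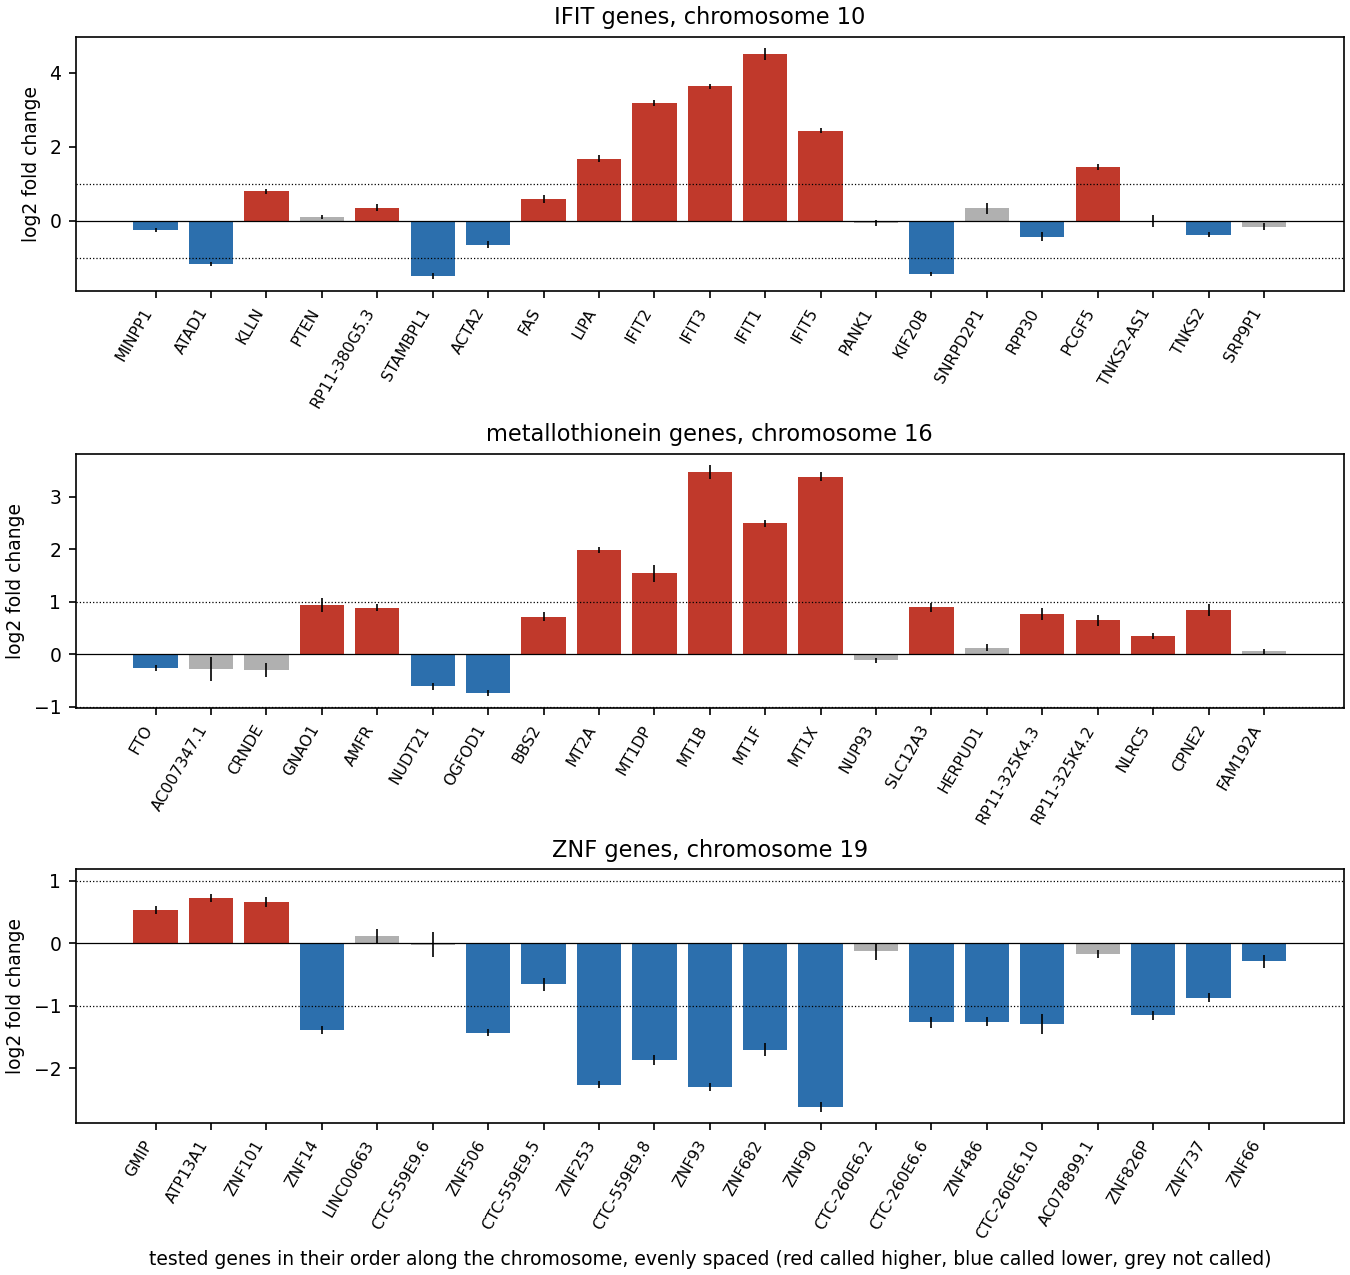
Bars give the log2 fold change (whiskers: standard error) of consecutive tested genes around 3 runs, in chromosome order and evenly spaced, red for called higher, blue for called lower and grey for not called, with dotted lines at 2-fold. The 5 genes of each run stand past the 2-fold line, which is how runs were defined, and most flanking genes do not.

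Among noncoding genes, RP11-1070N10.3, RP11-132N15.3 and CTC-378H22.2 rose by 2.93, 2.86 and 2.75. LINC00152 and MIR4435-1HG, near copies on chromosome 2, fell by 1.99 and 2.07, and SNHG17, a snoRNA host gene, was at 83, 88.1 and 82.8 FPKM with DMSO and 22.6, 23.3 and 21.6 with CPI-169. Histone genes, whose main transcripts lack a poly(A) tail, had 21 of 23 tested higher and none lower, of 72 found, and 22 were higher without DMSO replicate 1 and CPI-169 replicate 2. Of the 23, 7 passed the filter through 1 group alone, and the median was 1.01 with them and 1.00 without. With a filter of 5 FPKM 8 were higher, and with protein-coding genes alone 13. The median of all 72 was 0.150, 0.117 and 0.0666 FPKM with DMSO, in replicate order, and 0.427, 0.173 and 0.245 with CPI-169, so CPI-169 replicate 1 stood highest. HIST1H2AC was at 2.92, 3.43 and 3.42 FPKM with DMSO and 13.1, 11.2 and 14.2 with CPI-169, and HIST2H2BE went from 0.276, 0.256 and 0.17 to 3.49, 3.38 and 3.41 FPKM. The near-identical copies HIST2H2AA3 and HIST2H2AA4 cannot be told apart. Of 8 protocadherin genes tested, none was higher and 5 were lower. The lower count was 8 after quantile normalization and 1 with a filter of 5 FPKM, which leaves some members untested.

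Markers of other cell types were mostly at or near 0. Of 15 myeloid markers, 2 passed the filter, CD33 at 2.5, 1.97 and 2.49 FPKM with DMSO and 5.34, 5.24 and 4.8 with CPI-169 and CD68 at 0.561, 1.02 and 0.268 FPKM with DMSO and 3.77, 2.99 and 3.88 with CPI-169, while CD14 and CSF1R stayed at 0.156 FPKM or less and LYZ at 0.283 or less. The summed level of the myeloid list was 2.99 to 3.40 FPKM with DMSO and 8.66 to 9.79 with CPI-169. Of 20 T and NK cell markers, 7 passed, with CD3G at 35.3, 34.7 and 34 FPKM with DMSO and 55.2, 49 and 50.7 with CPI-169, CD247 and LCK falling by 0.77 and 1.22, and CD3E and CD8A at 0.846 and 0.11 FPKM or less. Their sum was 86.1 to 95.05 FPKM with DMSO and 84.1 to 94.5 with CPI-169. NCAM1, which neurons and NK cells share, rose from 0.0235 FPKM or less to 2.39, 2.27 and 1.89. Of 18 epithelial and stromal markers, DCN, a matrix proteoglycan gene, passed, at 205, 250.2 and 234 FPKM with DMSO and 684, 576 and 669 with CPI-169, whereas COL1A1, COL1A2, COL3A1, EPCAM and CDH1 stayed at 0.317 FPKM or less, and the sum of that list was 206 to 251 FPKM with DMSO and 577 to 686 with CPI-169. The part of these markers in the results above was not tested. Globin and other erythroid and platelet genes did not reach the filter. Of the 12 B cell markers, 6 were higher and 4 lower, and their sum was 3016 to 3321 FPKM with DMSO and 3315 to 3512 with CPI-169.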

How the data were processed

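RNA from 6 KARPAS-422 libraries was analysed. The authors deposited FPKM values of 63129 gene IDs, which came from Cufflinks after alignment with TopHat 1.4.1 (genome build hg19), per the submitters' processing notes. Not given in the sources used here are the Cufflinks version, annotation release, library kit and strand handling. FPKM are not counts, so no count model was used. Symbols and hg19 positions came from the table. Gene classes and transcript lengths came from GENCODE 29 by gene ID (14656 of 15115 matched) and promoters from RefSeq (GRCh38.p14, 250 bases before each start).

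A gene was tested if 3 or more of the 6 libraries reached 1 FPKM, and 31 IDs with missing values were left out. Values were transformed to log2(FPKM + 1) and fitted by limma 3.58.1 (R 4.3.3) with an intensity trend; residual degrees of freedom were 4 and prior ones 3.46. P-values were adjusted by Benjamini-Hochberg over all 15115 genes, with 0.05 as the threshold. The fit was also run on simulated data with far fewer changed genes than were called here. That run is no check of these calls. Lists are described by counts and medians, without a set test. Named genes are key genes of the lists, the 15 highest and 15 lowest fold changes, 4 genes per list, 4 noncoding genes per direction and runs of at least 3 neighbours, with the minimum of 2 FPKM in the higher group for those chosen by size; members that did not pass, exceptions to a list's direction and genes given as comparisons were named after their values were seen. Some list members are counted but not reported by name here. The members and lists were chosen with earlier results of these data known. Alternatives changed the pseudocount, filter, scaling, spread estimate, gene class, replicate block and libraries.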

Additional observations from a re-analysis of the deposited data

How the results depend on the processing

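Each result was recomputed under 18 alternatives, 1 of which, leaving out both DMSO replicate 1 and CPI-169 replicate 2, was chosen after seeing the data. Of 408 named genes, 384 kept their result, called or not called, under every alternative in which they were tested. Some genes were not tested in all 18, such as HCG22, which was tested in 15. The other 24 genes changed call under at least 1, none with a reversed direction. With all 12 libraries fitted together the calls of ATF4, BCL2L1, CCND3, CDKN1A, CDKN1B, EZH1, EZH2, IRF7, JUN and MYLIP were lost. With quantile normalization those of CD3D, CDKN1B, EZH2, MKI67, MYLIP and SDC1 were lost, with median scaling those of CDKN1B, MKI67 and MYLIP, and without the filter, among others, those of BCL2L1, CD3D, CDKN1B, CDKN2A, JUN, MDM2, MKI67, NDUFB3, RPL13 and SREBF1. Requiring 5 FPKM in 3 of 6 libraries left 10760 genes, of which 3263 were higher and 730 were higher by at least 2-fold. A pseudocount of 0.1 gave 1795 genes higher and 948 lower by at least 2-fold. Leaving out 1 library at a time gave 4355 to 4890 genes higher, 4918 to 5902 lower, 1141 to 1241 higher and 553 to 660 lower by at least 2-fold. Quantile normalization gave 4900 higher and 5708 lower and median scaling 5733 and 4860, with median log2 fold changes of -0.05 and 0.05. Over all alternatives the count of interferon-stimulated effectors higher was 59 to 65, of cholesterol genes higher 22 to 23, of mitosis genes lower 40 to 42 and of chromosome 19 ZNF genes lower 120 to 166, and that of ribosomal proteins higher was 23 with median scaling. With a replicate block 4585 genes were higher, 5005 lower, 1172 higher by at least 2-fold and 592 lower by at least 2-fold. Under the block the calls of BCL2L1, CDKN1B, EZH2, HLA-C and JUN, among others, were lost, and the lower count of MHC class II genes was 3. Whether the shared numbers pair the libraries is not known. Deviations of same-numbered libraries correlated at -0.198, -0.311 and 0.185. These values cannot decide it, since each group has only 3 libraries. In addition, DMSO replicate 1 and CPI-169 replicate 2, both with lower short transcripts, correlated at 0.384. Requiring 5 FPKM also left 5 genes higher in each of the TGF-beta, WNT and NOTCH, S100 and ephrin lists, 3 in each of the migration, neuronal and hypoxia lists, and 10 immunoglobulin segments. List counts under an alternative leave out members not tested there, so a smaller count need not mean lost calls. With all 12 libraries fitted together, 3 immediate early genes and 3 ERK feedback genes were higher, and 5 unfolded protein response genes were lower, while after median scaling 8 of that list were higher. Without the filter 5 ribosomal protein genes were higher. Depth limits the genes near 1 FPKM, where the absolute number of reads is unknown.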
